A study of Arabidopsis thaliana with 12 samples.

Results

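Dehydrins are a family of small, highly hydrophilic proteins, and the results below describe the transcripts of 7 Arabidopsis thaliana dehydrin genes in drought-stressed leaves. The genes, taken from a list of names and array identifiers built on the locus code, were RAB18 (AT5G66400_at), XERO1 (AT3G50980_at), LTI30 (AT3G50970_at), COR47 (AT1G20440_at), ERD10 (AT1G20450_at), ERD14 (AT1G76180_at) and HIRD11 (AT1G54410_at). All 7 had a probe set of their own among the 21461 probe sets tested. The plants were of the accession Columbia and grew on peat pellets under 10 h of daily light and 22 degrees C, and RNA of their young leaves was hybridised to 12 Affymetrix ATH1 arrays in 6 groups of 2. Moderate drought began when watering stopped 30 days after sowing and soil was then kept at 30% of field capacity, and leaves were sampled on day 1 and on day 10. Progressive drought began 35 days after sowing, and those leaves were taken when wilting was first seen. A separate well-watered group served as control at each of these 3 samplings, so no control arrays are shared. Leaves of 5 plants were pooled for each array, which makes n = 2 pools in each group.

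Dehydrins belong to the late embryogenesis abundant (LEA) proteins, which accumulate when seeds dry and when vegetative tissue loses water or is chilled. They are largely unfolded in solution and share a lysine-rich K-segment that can fold against membranes, and they are known for protecting membranes and enzymes in drying cells. Their genes are activated by abscisic acid (ABA), the hormone made under water shortage, through bZIP factors of the ABF group, and in part by CBF and DREB2 factors that respond to cold and dehydration. RAB18 is the classical ABA-responsive member, and XERO1 has a similar arrangement of protein segments. LTI30 consists mainly of K-segments and binds membranes. COR47, ERD10 and ERD14 are acidic dehydrins with a serine-rich segment that can be phosphorylated. HIRD11 is a small histidine-rich member that binds metal ions.

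Expression is given as deposited log2 values, on which 1 unit is a doubling. The 3 samplings had been normalised as separate sets of 4 arrays, so levels were compared within a sampling only, and levels of different genes were not compared. Changes are drought minus control on the log2 scale with the standard error of the limma fit, and a change was called when its Benjamini-Hochberg adjusted p over all probe sets was under 0.05. Replicate arrays correlated across probe sets at 0.989 to 0.997 in moderate drought and at 0.964 and 0.974 in the progressive comparison. All 4 measured leaf markers, RCA, LHCB3, PSAD1 and GAPB, lay above the array median on every array, at 10.64 to 13.81. Of 8 seed and embryo markers, 6 lay below the array median on every array, among them the storage protein genes CRU3, CRA1 and SESA1. In whole leaves, fewer cells of a type and less RNA per cell cannot be told apart.

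**Figure D1:**
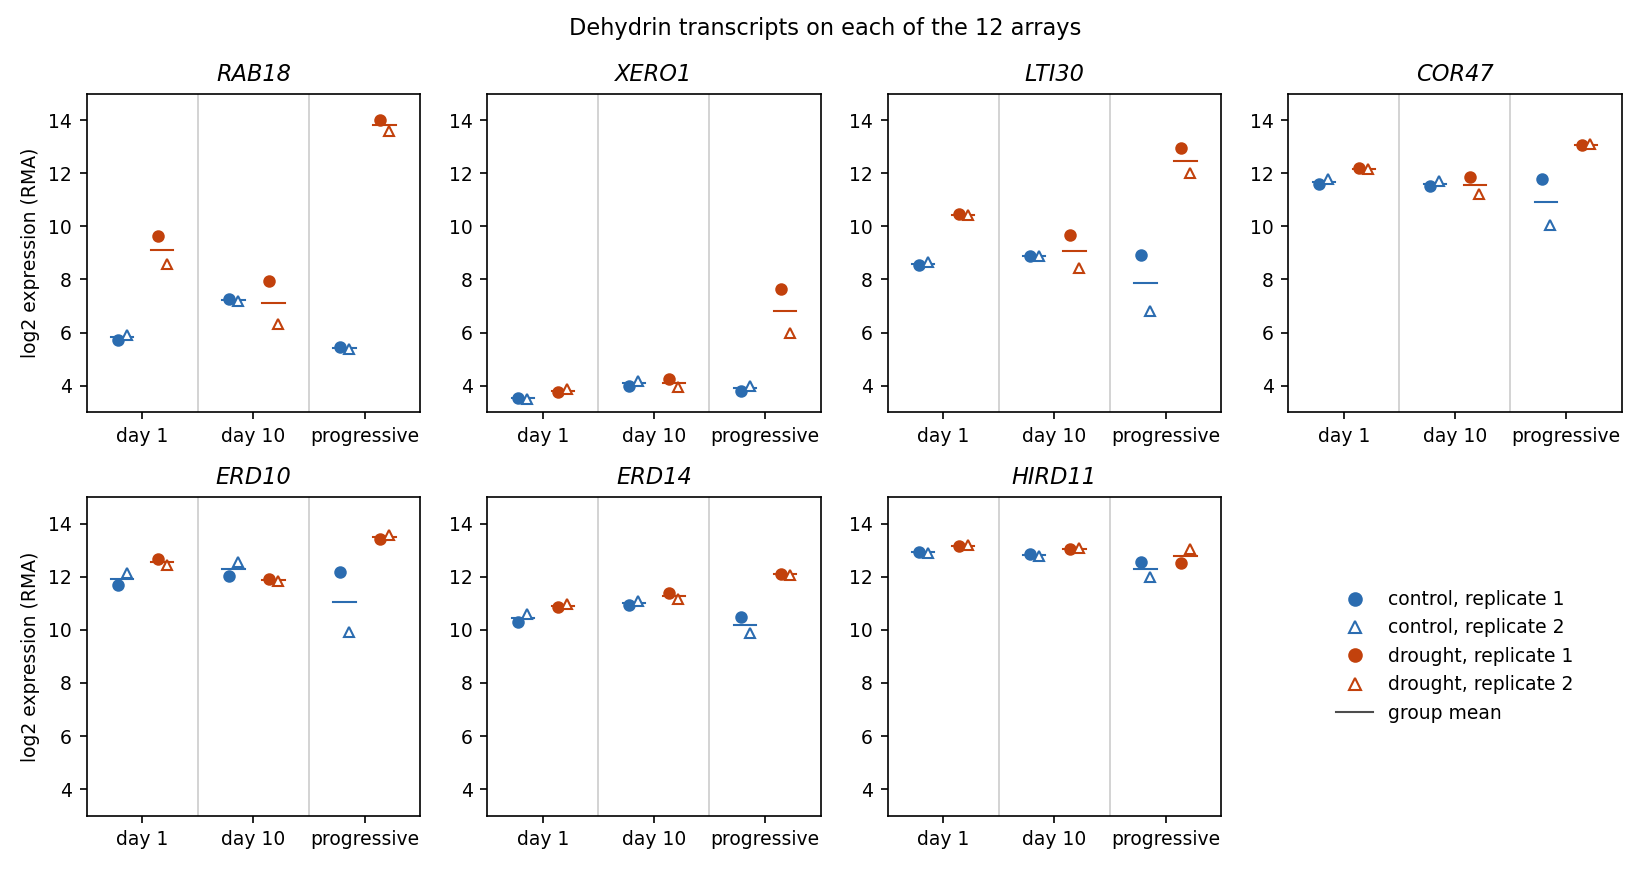
Log2 expression (y axis) of each dehydrin on the 12 arrays, by sampling (x axis), with controls in blue, drought in red, replicate 1 as circles, replicate 2 as triangles and group means as lines. RAB18 is the member with the widest separation, from 5.39 and 5.47 in the progressive controls to 13.59 and 14.02 at wilting, while the control pools of LTI30, COR47 and ERD10 in that sampling lie far apart.

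The first comparison asks what leaf transcripts do on day 1 of moderate drought. RAB18 measured 5.73 and 5.92 in the control pools and 9.62 and 8.57 in the drought pools. LTI30 measured 8.53 and 8.66 in the controls and 10.45 and 10.41 under drought. Both genes were thus higher in each drought pool than in either control pool, by at least 2.65 log2 units for RAB18 and 1.75 for LTI30. The change was 3.27 ± 0.48 for RAB18, a 9.63-fold difference, and 1.84 ± 0.63 for LTI30, a 3.58-fold difference. RAB18 ranked 4 and LTI30 ranked 19 from the top among the changes of all probe sets on that day.

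The other 5 members had estimates under 1 log2 unit on day 1. ERD10 was at 0.64 ± 0.58, COR47 at 0.49 ± 0.45 and ERD14 at 0.46 ± 0.19. XERO1, at 0.29 ± 0.42, had a control mean 2.10 log2 units below the array median, a level at which a signal above background was not tested. HIRD11 measured 12.94 and 12.90 in the controls and 13.15 and 13.19 under drought, a change of 0.25 ± 0.20. For the acidic pair COR47 and ERD10 the control and drought pools were separated by 0.36 and 0.30. All 7 members had both drought arrays above both control arrays, against 26.6% of all probe sets.

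With all 12 arrays in the fit, limma called 0 of the 7 members on day 1, where 0.0140% of probe sets were called as higher. The adjusted p was 0.083 for RAB18 and 0.442 for LTI30, and 3 members, with ERD14 the third, had an unadjusted p under 0.05, against 4.80% of probe sets. This fit shares 1 estimate of the spread over all samplings. With the 4 arrays of day 1 alone, limma called RAB18 (adjusted p = 0.0219) and LTI30 (adjusted p = 0.00236) as higher, where 0.503% of probe sets were. With array weights RAB18 alone was called (adjusted p = 0.00935), against 0.433%. With the 8 moderate drought arrays both were called, against 0.410%. Leaving out either drought array of day 10 also gave a call for RAB18 (adjusted p = 0.0397), and over 21 alternatives its adjusted p ran from 0.00935 to 0.625. The 95% intervals of the main fit were 2.18 to 4.36 for RAB18, 0.42 to 3.26 for LTI30 and 0.02 to 0.90 for ERD14, and those of COR47, ERD10, XERO1 and HIRD11 included 0. With the 4 arrays of day 1 alone the standard errors were narrower at the same estimates. They were 0.31 for RAB18, 0.10 for LTI30, 0.11 for COR47 and 0.17 for ERD10. Those of ERD14, XERO1 and HIRD11 were 0.13, 0.10 and 0.09. COR47, ERD10, ERD14, XERO1 and HIRD11 were still not called there, at adjusted p from 0.100 to 0.222 in limma.

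**Figure D2:**
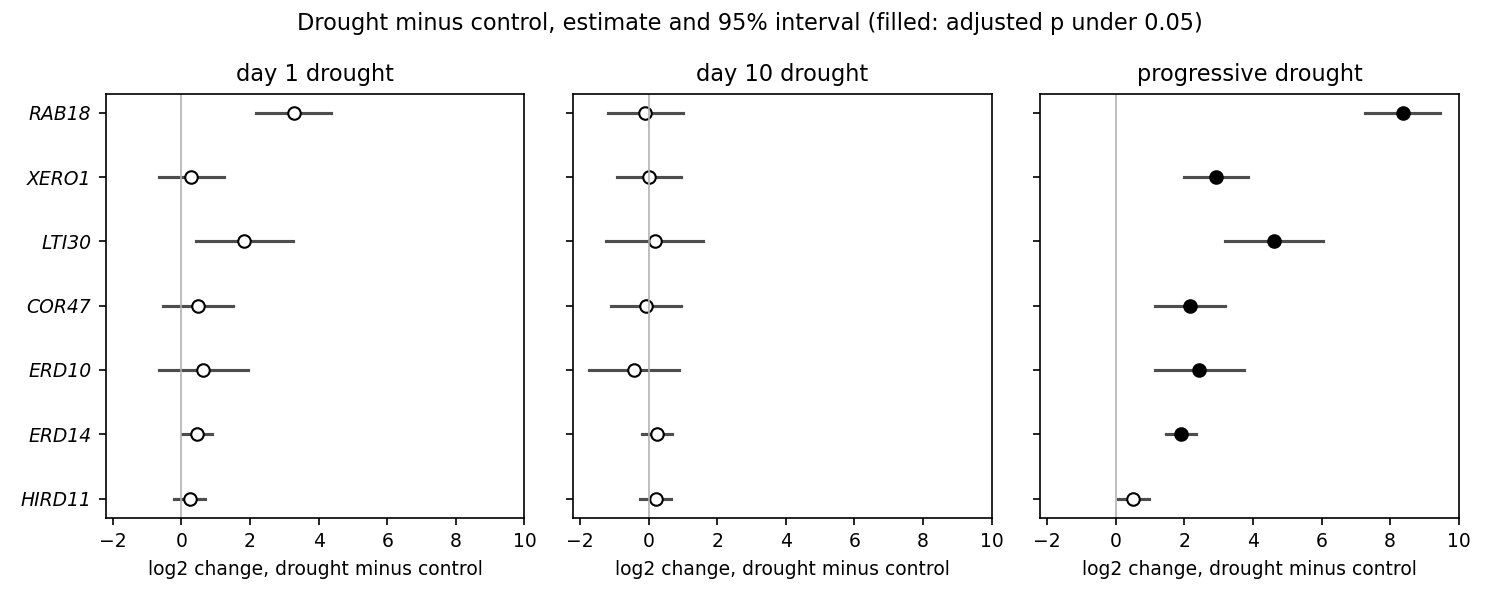
Log2 change, drought minus control (x axis), of each dehydrin (y axis) with its 95% interval from the fit of all 12 arrays, in the 3 comparisons. On day 1 RAB18 and LTI30 stand apart from the other members, on day 10 all 7 intervals include 0, and in progressive drought 6 members were called (filled points).

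The second comparison asks what remains after 10 days at constant soil moisture. RAB18 measured 7.27 and 7.17 in the control pools, and 7.93 and 6.31 in the drought pools. LTI30 measured 8.89 and 8.87 in the controls, and 9.68 and 8.44 under drought. In both genes 1 drought pool lay above both controls and the other below them. COR47 (11.52 and 11.71 against 11.86 and 11.23) and XERO1 (4.00 and 4.17 against 4.26 and 3.93) showed the same split, so that 4 of the 7 members overlapped between groups. Drought replicate 1 exceeded replicate 2 by 1.62 for RAB18 and by 1.24 for LTI30, differences wider than those of 99.8% and 99.6% of probe sets between the same arrays.

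ERD14 (0.25 ± 0.19) and HIRD11 (0.22 ± 0.20) were the 2 members with both drought pools above both controls on day 10, against 25.7% of probe sets. ERD10 was the 1 member with both drought pools below both controls, at 11.93 and 11.83 against 12.03 and 12.57, a change of -0.42 ± 0.58, against 18.9% of probe sets. None of these 3 small shifts passed the test. Limma called 0 of the 7 members, where 0.0466% of probe sets were called as higher and 0.0606% as lower, and 0 members had an unadjusted p under 0.05, against 6.39% of probe sets higher and 4.04% lower. The adjusted p ran from 0.768 for ERD14 upwards. The interval of the RAB18 change, -0.10 ± 0.48, ran from -1.19 to 0.99, and that of LTI30, 0.18 ± 0.63, from -1.24 to 1.60, and changes within these bounds are not excluded.

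Other stress genes were also set side by side between the drought pools of day 10. LEA7, another LEA protein gene, was higher by 1.03 in replicate 1, and the cold-response factors CBF1, CBF2 and CBF3 by 1.14, 1.50 and 1.77. COR15A and COR15B, which encode chloroplast cryoprotective proteins, went the other way, by -1.03 and -0.77. These genes were chosen after their values were seen, and their part in the split was not tested.

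The third comparison asks what happens when the soil dries until leaves wilt. RAB18 measured 5.47 and 5.39 in the control pools and 14.02 and 13.59 at wilting. It rose by 8.37 ± 0.48, or 331-fold, the change at rank 3 of all probe sets. Its value on drought replicate 1 was the maximum of that array, so the fold may be a lower bound, and saturation was not tested. XERO1 measured 3.80 and 4.00 in the controls and 7.65 and 5.99 at wilting, and rose by 2.92 ± 0.42, or 7.59-fold. Its control mean lay 0.79 below the array median, and its 2 wilted pools differed by 1.65, so that its change was 3.75 without the lower and 2.10 without the higher of them. These fits correspond to 13.5-fold and 4.28-fold. The XERO1 controls lay near those of the seed storage genes CRU3 (3.75 and 4.07) and CRA1 (3.64 and 3.73). They were not shown to exceed background, so the XERO1 folds may be lower bounds. Background was not tested, and the gap between the wilted pools limits these folds too.

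LTI30 measured 8.91 and 6.81 in the controls and 12.93 and 12.02 at wilting, and rose by 4.61 ± 0.63, or 24.5-fold. COR47 measured 11.77 and 10.05 in the controls and 13.07 and 13.09 at wilting, and rose by 2.17 ± 0.45, or 4.49-fold. ERD10 measured 12.18 and 9.92 in the controls and 13.42 and 13.56 at wilting, and rose by 2.44 ± 0.58, or 5.42-fold. The wilted pools of COR47 and ERD10 were nearly equal, and all 3 genes were higher at wilting than in either control. ERD14 measured 10.48 and 9.88 in the controls and 12.09 and 12.07 at wilting, and rose by 1.90 ± 0.19, or 3.74-fold. It had the narrowest interval of the 6, from 1.46 to 2.34.

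HIRD11 measured 12.55 and 11.99 in the controls and 12.52 and 13.04 at wilting, and its groups overlapped by 0.03. Its change of 0.51 ± 0.20 did not pass the test (adjusted p = 0.0979), with an interval from 0.06 to 0.96. The change of HIRD11 was 0.79 without the progressive control replicate 1 and 0.77 without drought replicate 1. Without control replicate 2 it was 0.23, and without drought replicate 2 it was 0.25. HIRD11 was called with cyclic loess normalisation (0.94). It was also called with a block that crosses the replicate numbers of the progressive arrays (0.51 ± 0.10, adjusted p = 0.0094 in limma). That block was chosen after seeing the data. Replicate 1 minus replicate 2 of HIRD11 was 0.56 in the controls and -0.52 at wilting. The block takes this spread out of the error, so its smaller p is no stronger evidence.

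In the limma fit of all 12 arrays 6 of the 7 members rose in progressive drought, where 12.5% of probe sets did. The adjusted p was 9.1e-06 for RAB18, 1.4e-04 for ERD14, 6.8e-04 for LTI30, 8.8e-04 for XERO1, 0.00657 for COR47 and 0.0124 for ERD10. The median change of the 7 members was 2.44, against 0.00 for all probe sets. The 6 risers also had both wilted pools above both controls, as 27.1% of probe sets did. With the 4 arrays of this comparison alone the calls were RAB18 (adjusted p = 0.0164) and ERD14 (adjusted p = 0.0357), where 2.74% of probe sets were called as higher. LTI30 (0.0644), XERO1 (0.0816), COR47 (0.145) and ERD10 (0.190) then missed the threshold at the same estimates. Their standard errors were then 0.84, 0.62, 0.64 and 0.83, wider than in the fit of all 12 arrays, which shares its spread with moderate drought. That of RAB18 was narrower, at 0.19.

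**Figure D3:**
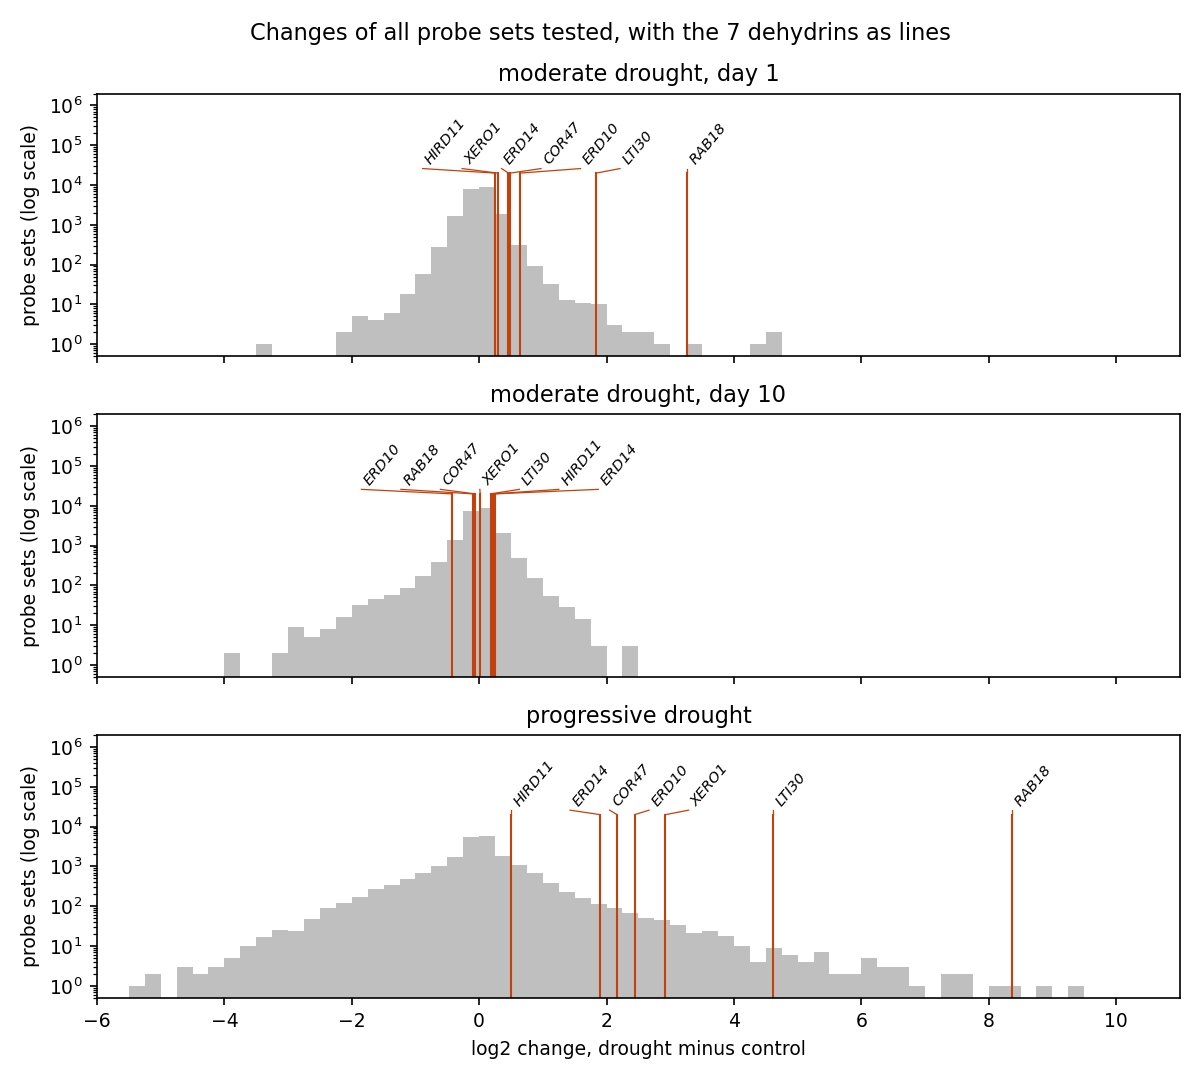
Number of probe sets (y axis, log scale) by log2 change, drought minus control (x axis), in the 3 comparisons, with the 7 dehydrins as lines. RAB18 lies near the upper end on day 1 (3.27) and at wilting (8.37) and near the centre on day 10 (-0.10), while HIRD11 stays within 0.51 of 0 throughout.

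The 2 control pools of the progressive comparison differed in a way that touched some dehydrins and not others. Replicate 1 exceeded replicate 2 by 2.27 for ERD10, 2.10 for LTI30 and 1.72 for COR47, which was wider than the gap of 99.4%, 99.2% and 98.8% of probe sets between the same arrays. ERD14 differed by 0.60 and HIRD11 by 0.56. RAB18 differed by 0.08 and XERO1 by -0.20. Set against control replicate 1 alone, ERD10 rose by 1.31 (2.47-fold), COR47 by 1.30 (2.47-fold) and LTI30 by 3.57 (11.8-fold). Against control replicate 2 alone they rose by 3.57 (11.9-fold), 3.03 (8.16-fold) and 5.66 (50.6-fold). All 3 genes kept their call with either control, at adjusted p from 6.4e-05 to 0.00758 in limma. In these fits the lone control is assumed to vary like the other groups and the gap between the controls leaves the error, so a smaller p is no stronger evidence. RAB18 moved between 8.33 and 8.41.

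The same division appeared among genes that often respond with dehydrins. Of 8 measured cold and dehydration response genes, 7 were higher in control replicate 1, with a median gap of 1.62, the widest at 3.11 for COR15B and 2.64 for RD29A. RD29B, a strongly ABA-dependent gene, was the exception at -0.30. Among other LEA genes, LEA14 differed by 1.75, while LEA7 and LEA4-5 differed by -0.02 and 0.01. CBF1, CBF2 and CBF3 differed by 0.02, -0.12 and -0.06 between these controls, and DREB2A by 1.48. XERO1, RD29B, LEA7, LEA4-5 and these CBF genes measured 3.80 to 4.78 in the 2 controls. The array medians there were 4.68 and 4.70. At such levels a difference between pools may not show, and RAB18, at 5.47 and 5.39, lay somewhat above. The part of expression level in this division was not tested. These comparisons were chosen after the values were seen and are descriptions of 2 arrays, and their part in the dehydrin changes was not tested beyond the values without either control.

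**Figure D4:**
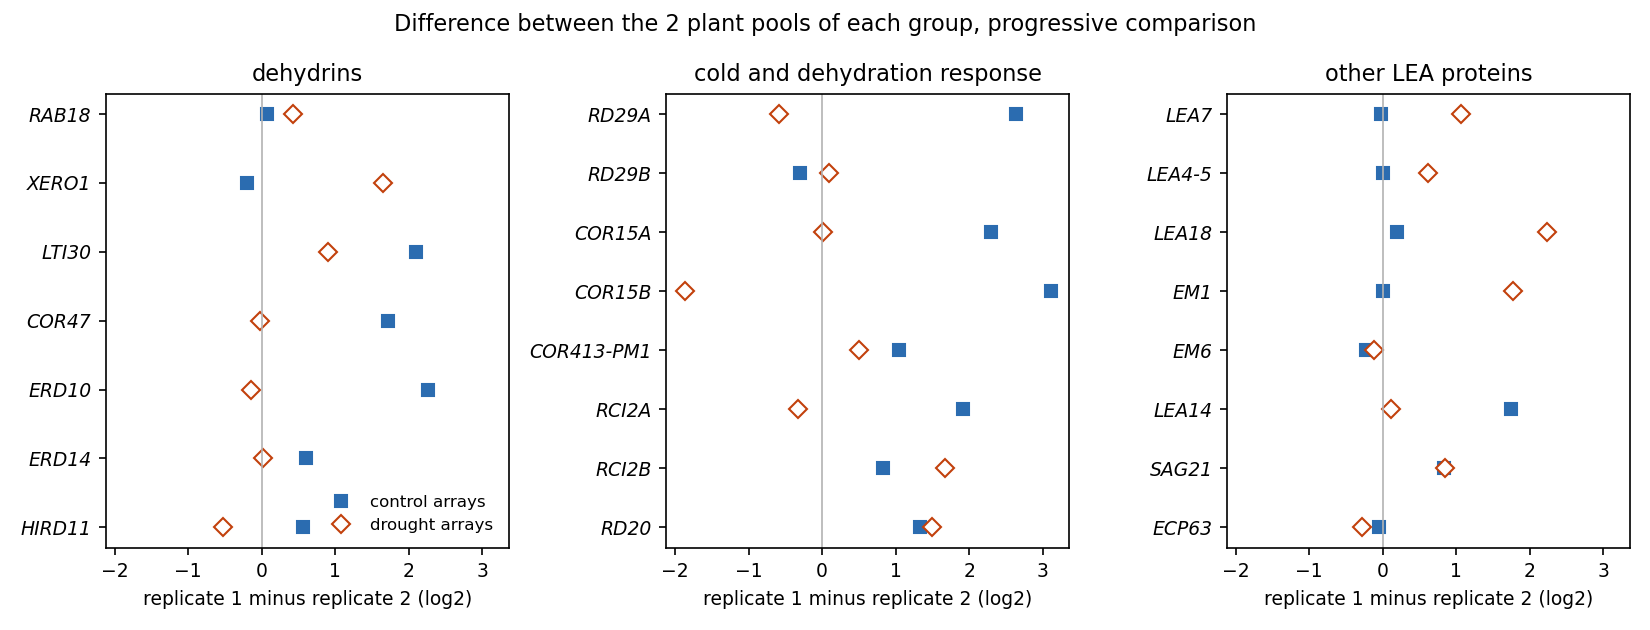
Replicate 1 minus replicate 2 in log2 units (x axis) for each gene (y axis) in the progressive comparison, with control arrays as blue squares and drought arrays as red diamonds. LTI30, COR47 and ERD10 have control gaps of 1.72 to 2.27, and RD29A, COR15A, RCI2A and LEA14 lie to the same side, whereas RAB18, RD29B, LEA7 and LEA4-5 have gaps between -0.30 and 0.08. The controls of RD29B, LEA7 and LEA4-5 lie near or below the array median, where a gap may not show.

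Whether the drought effect itself differed between samplings was tested with interaction contrasts of the limma fit. From day 1 to day 10 the effect on RAB18 changed by -3.37 ± 0.68 and that on LTI30 by -1.66 ± 0.88. The control mean of RAB18 lay 0.21 above the array median on day 1 and 1.71 above it on day 10. That of LTI30 lay 2.97 and 3.37 above. The part of the control level in the smaller effect was not tested. All 7 members had a smaller estimate on day 10, with a median difference of -0.55 against 0.01 for all probe sets. None was called, as was none of the 21461 probe sets, and the adjusted p of RAB18 was 0.456. RAB18 was the 1 member with an unadjusted p under 0.05, where 2.91% of probe sets had one in that direction. With the 8 moderate drought arrays alone the adjusted p of RAB18 was 0.124, and with array weights 0.118.

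Against day 1, the effect of progressive drought was larger by 5.10 ± 0.68 for RAB18, 2.63 ± 0.59 for XERO1 and 1.44 ± 0.27 for ERD14. These 3 of 7 members were called, where 5.26% of probe sets were called in that direction, at adjusted p of 0.00218, 0.0205 and 0.0103 in limma. With the 8 arrays of that contrast alone XERO1 lost its call at the same estimate (adjusted p = 0.0633), which left 2, against 3.48% of probe sets. LTI30 (2.77 ± 0.88), ERD10 (1.80 ± 0.81), COR47 (1.68 ± 0.64) and HIRD11 (0.26 ± 0.28) were not called, and the interval of HIRD11 ran from -0.38 to 0.90. Without the progressive control replicate 1 the count became 6, with LTI30, COR47 and ERD10 added, and without the day 1 control replicate 2 it became 1. Against day 10, RAB18 was higher by 8.47 ± 0.68, LTI30 by 4.43 ± 0.88, XERO1 by 2.91 ± 0.59 and ERD14 by 1.65 ± 0.27. These 4 were called, against 4.67% of probe sets, at adjusted p from 2.5e-04 to 0.0134 in limma, and ERD10 (0.0534) and COR47 (0.0545) missed the threshold. With the 8 arrays of that contrast alone RAB18 and ERD14 were called, against 2.19% of probe sets. With cyclic loess limma also called ERD10 and COR47 (adjusted p = 0.0403 and 0.0388). The filter on dim probe sets did so too (0.0391 and 0.0405). In these 2 settings 2646 and 2714 probe sets were called in either direction.

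Ordered by the size of the change at wilting, the members ran from RAB18 through LTI30, XERO1, ERD10, COR47 and ERD14 to HIRD11. The gap between neighbours was taken from within-array differences of the 2 genes, with an error pooled over the 6 groups. RAB18 exceeded LTI30 by 3.76 ± 0.68 and ERD14 exceeded HIRD11 by 1.40 ± 0.21. LTI30 exceeded XERO1 by 1.69 ± 0.75. XERO1, ERD10, COR47 and ERD14 followed each other with gaps of 0.48 ± 0.91, 0.27 ± 0.26 and 0.26 ± 0.35, so their order is not settled by these pools. On day 1 RAB18 and LTI30 again led, with a gap of 1.43 ± 0.68 between them and 1.20 ± 0.49 down to ERD10. The 4 remaining gaps were between 0.03 and 0.17, smaller than their errors, and all 6 gaps of day 10 were smaller than theirs. As these errors are pooled over all samplings, they do not measure the spread of day 1, day 10 or wilting alone. The progressive arrays spread most, so the errors given for wilting may be too small. The place of LTI30 above XERO1 at wilting is thus not settled either.

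Pairs of members were also set side by side over the arrays. COR47 and ERD10 are direct neighbours in the RefSeq annotation TAIR10.1, with 0 protein-coding genes between them, as are LTI30 and XERO1. Once each group's mean was subtracted, COR47 and ERD10 varied together at r = 0.94 over the 12 arrays, and both did so with ERD14, at 0.93 and 0.89. The other neighbours, LTI30 and XERO1, reached 0.33, while LTI30 reached 0.91 with COR47. RAB18 stood at 0.12 with ERD10 and at 0.51 with LTI30. These values are descriptions over 12 residuals from 6 groups, and the progressive arrays, which spread most, weigh heaviest in them. Whether probes of COR47 and ERD10 share signal was not tested.

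For each member called in a comparison, the 3 genes with a RefSeq symbol that followed it most closely were taken by Pearson correlation over the 12 arrays, after subtracting the mean of each sampling. RAB18 was followed by LEA7 (r = 0.99), ZW9 (0.99) and the ABA-responsive RD29B, listed as LTI65 (0.99). LEA7 changed by 4.31, -0.35 and 9.45 on day 1, on day 10 and at wilting, and RD29B by 1.92, 0.10 and 7.41. ERD10 was followed by the LEA gene LEA14 (0.99), ESL1 (0.99) and the NAC factor gene RD26 (0.98). COR47 was followed by TH9 (0.98), SPPL4 (0.97) and LTI78 (0.97), which is RD29A. For LTI30 they were VEP1 (0.99), the guard cell potassium channel gene GORK (0.99) and SPPL4 (0.98), for ERD14 G3Pp4 (0.99), RD2 (0.98) and PPH (0.98), which acts in chlorophyll breakdown, and for XERO1 PAL4, GLYI7 and SKP2A (0.99 to 1.00). The points share the 4 progressive arrays, on which these genes changed most, and no test was made.

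The family has 3 further dehydrin loci on the array, which stayed low. AT2G21490, AT4G38410 and AT4G39130 lay below the array median on all 12 arrays, between 3.53 and 4.43. Their changes at wilting were 0.23 ± 0.16, 0.06 ± 0.09 and 0.05 ± 0.11, and 0 of 3 was called in any comparison by limma. Of all probe sets 0.0140%, 0.0466% and 12.5% were called as higher on day 1, on day 10 and at wilting. Of these tests 1, AT4G38410 on day 1 (0.22), had an unadjusted p under 0.05, against 4.80% of probe sets higher on that day. No test of signal over background was made for them.

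Genes that act upstream of dehydrins or beside them were counted from lists. Of 8 kinases and bZIP factors of ABA signalling, 5 rose at wilting, where 12.5% of probe sets did, among them the factors ABF3 (3.43 ± 0.25), ABF4 (2.38 ± 0.38) and ABI5 (0.43 ± 0.11) and the kinase OST1 (0.89 ± 0.19). Of 6 CBF and DREB2 factors, 2 rose, DREB2A (4.14 ± 0.39) and CBF4 (0.59 ± 0.18). CBF3 was at 2.31 ± 0.79, with wilted pools at 5.64 and 8.33. CBF4 measured 3.80 and 4.08 in the controls and 4.27 and 4.79 at wilting. ABI5 measured 4.31 and 4.25, then 4.61 and 4.81. Both lay near or below the array medians of 4.65 to 4.70, and a signal above background was not tested for them. Of the 8 cold and dehydration response genes 5 rose, among them RD29B (7.41 ± 0.39), RD20 (3.90 ± 0.60), RD29A (2.66 ± 0.68) and RCI2B (1.92 ± 0.47). Of 8 other LEA genes 7 rose, among them LEA7 (9.45 ± 0.60), LEA4-5 (7.52 ± 0.25), SAG21 (6.03 ± 0.42) and EM1 (2.73 ± 0.43). None of these 4 lists had a member called on day 1 or day 10 by limma, where 0.0140% and 0.0466% of probe sets were called as higher. At an unadjusted p under 0.05, 7 of their 30 members were higher on day 1 and 3 on day 10, against 4.80% and 6.39% of all probe sets, so that the count of day 10 is near that share. The 3 of day 10 are kinases or bZIP factors.

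Markers of leaf cell types also shifted at wilting. All 4 leaf markers fell, where 14.5% of probe sets did, by 0.55 for LHCB3, 0.67 for RCA, 0.74 for PSAD1 and 1.67 for GAPB, and their summed linear level was 28662 and 33043 in the controls against 19643 and 16964 at wilting. Of 5 guard cell markers 2 fell, the potassium channel gene KAT1 (-1.26) and GC1 (-2.08), with summed levels of 140 and 217 in the controls and 110 and 97.3 at wilting. Of 5 vascular markers 2 rose, the secondary-wall cellulose synthase genes IRX3 (0.76) and IRX1 (0.91), where 12.5% of probe sets did. The summed level of the 5 was 569 and 699.9 in the controls against 1168 and 717 at wilting, most of it from the phloem sucrose transporter gene SUC2, which was not called. The 8 seed and embryo markers, from tissue rich in dehydrins, had 0 called, with summed levels of 118 and 126 against 124 and 136. Trichome (0 of 2) and shoot apex or floral markers (0 of 5) had none called either. On day 1 limma called none of the cell type markers, where 0.0140% of probe sets were called as higher. GC1 measured 7.80 and 7.80 in the controls and 6.31 and 6.29 under drought. At an unadjusted p under 0.05, 2 of 5 guard cell markers were lower, against 835 of 21461 probe sets. Higher were 3 of 5 vascular, 2 of 8 seed and embryo and 2 of 5 shoot apex or floral markers, against 4.80%. The part of these shifts in the dehydrin changes was not tested.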

How the data were processed

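Leaf RNA was measured on 12 ATH1 arrays. The authors deposited log2 expression values that had been made by RMA with affy, per the submitters' processing notes, with probes grouped by gene locus. No version of affy is given in the sources used here. After sorting, values were nearly identical within each set of 4 arrays and not between sets, so each sampling had been normalised separately. A total of 56 control probe sets were left out. The depth of an array is not a count, and the precision is limited by the number of arrays. With n = 2 pools a group, p-values of the main fit rest on the spread between pools within all 6 groups. That spread is also drawn towards the one of all probe sets. They do not measure the spread of the 2 compared groups alone.

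One model with 6 group means was fitted to 21461 probe sets with limma 3.58.1 in R 4.3.3 (eBayes without trend), and p-values were adjusted by Benjamini-Hochberg over all of them. No dim probe set was filtered out in this fit. The contrasts were drought minus control in each sampling and the differences between these effects. The procedure was tested on simulated data, but the outcome is not given here and is not used as support for the p-values. Symbols came from RefSeq, which matched 21164 loci. The replicate numbers are shared by the groups, but the differences between replicates 1 and 2 of control and drought correlated at 0.03, 0.06 and -0.49 on day 1, on day 10 and in progressive drought, so the numbers were not taken to pair the arrays. The text names every dehydrin, the genes most like each called member, and list genes; other names are said to be chosen after their values were seen. ABF2, DREB2C, KIN1, KIN2, RBCS1A and GL3 were not analysed here. The members and lists were chosen with earlier results of these data known. Alternatives were the arrays of a comparison alone, array weights, cyclic loess, quantile normalisation over all arrays, a filter on dim probe sets, eBayes with trend, a replicate block and leaving out each array. A crossed block and the 8 moderate drought arrays alone were chosen after seeing the data.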

Additional observations from a re-analysis of the deposited data

Results flagged for a closer look

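For some dehydrins the effect of drought differed between samplings by the interaction contrast in limma. Compared with day 1, the effect of progressive drought was larger by 5.10 for RAB18, 2.63 for XERO1 and 1.44 for ERD14. Compared with day 10, it was larger by 8.47 for RAB18, 4.43 for LTI30, 2.91 for XERO1 and 1.65 for ERD14. The samplings also differ in plant age, soil water and normalisation set, which cannot be told apart here. Groups of 2 arrays were too small to screen for outlying samples.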

How the results depend on the processing

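The number of called dehydrins on day 1 was 0, but 2 with the arrays of the comparison alone, 1 with array weights, 2 with the 8 moderate drought arrays and 0 to 1 when single arrays were left out. In progressive drought it was 6, and 2 with the arrays of the comparison alone (6 to 7 without single arrays). For progressive minus day 1 it was 3, and 1 (without day 1 control replicate 2) to 6 (without progressive control replicate 1). For progressive minus day 10 it was 4, against 2 with those arrays alone and 3 to 6 without single arrays. With the replicate block the counts were 0 on day 1, 0 on day 10, 6 in progressive drought and 3 in each difference from it, where XERO1 lost its call (adjusted p = 0.0725 and 0.0558) and LTI30 gained one against day 1 (0.0486). The crossed block, chosen after seeing the data, gave 7 in progressive drought, with HIRD11 added, 3 against day 1 and 6 against day 10. Cyclic loess and the filter on dim probe sets each added COR47 and ERD10 to the calls of progressive minus day 10. Without single arrays, changes turned direction on day 10 for RAB18 (-0.91 to 0.71), LTI30 (-0.44 to 0.80), COR47 (-0.38 to 0.25) and XERO1 (-0.15 to 0.18), and for HIRD11 in day 10 minus day 1 (-0.0647 to 0.00225, and 0.0326 with cyclic loess) and progressive minus day 1 (-0.0222 to 0.54). Over all probe sets, calls on day 1 numbered 4, against 187 with the arrays alone, 165 with array weights, 143 with the 8 arrays, 24 with trend, 1 with the replicate block and 8 with the crossed block. On day 10 they numbered 23, against 0, 158, 767, 49, 0 and 213 in the same order, and 15 with cyclic loess. In progressive drought they numbered 5797, against 1575 with the arrays alone. For day 10 minus day 1 they numbered 0, against 12 with the arrays alone and 7 with array weights; for progressive minus day 1, 2688 against 1365 with the replicate block; for progressive minus day 10, 2637 against 1312 with the arrays alone and 1435 with the replicate block. The causes were not tested.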
